A study of Mus musculus with 5 samples.

Results

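The 9 genes described here encode the Jun proteins (Jun, Junb, Jund), the Fos proteins (Fos, Fosb, Fosl1, Fosl2) and the related partners Atf3 and Batf of the transcription factor AP-1. They were taken by name from a table of 39056 genes, after earlier results of these data had shown that Jun and Fos differed between the genotypes. All 9 had counts, and 7 had enough counts to be fitted among 13467 genes. Because the family was chosen on that difference, its values for Gabbr1 null against wild-type (WT) are a description, and calls of its members are not read as a test.

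The libraries came from haematopoietic stem and progenitor cells of mouse bone marrow at postnatal day 15, with about 12000 cells sorted per population by the Lin-Sca-1+Kit+ (LSK) phenotype, which enriches stem cells and early multipotent progenitors. Of the 5 libraries, 3 came from Gabbr1 null mutant mice and 2 from WT mice, all of C57BL/6 background. Gabbr1 codes for one chain of the G protein-coupled GABA-B receptor, which binds the neurotransmitter GABA. The deleted part of the gene, and whether it is lost in every tissue, were not given in the sources used here. As for animals, the labels give 4 per genotype in one place and 3 null and 2 WT in another, and none says that each library is its own animal, so errors and p-values reflect only how far these libraries spread, which may be technical.

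AP-1 is a dimer of basic leucine zipper proteins. Jun proteins pair with each other or with Fos proteins, whereas Fos proteins need a Jun partner, and the dimers bind the element TGAGTCA (TRE) or its longer relative TGACGTCA (CRE). Jun, Fos, Junb and Fosb are immediate early genes, transcribed within minutes of growth factors, stress or the handling of tissue, while Jund is made more steadily. In mice Junb restrains the growth of stem and myeloid cells, and Batf, which pairs with Jun proteins, acts in lymphocytes.

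The upstream windows of the 4 best-known immediate early members are shown because they are the members with the clearest role as rapidly induced genes. Each is the 250 bases before the RefSeq gene start (GRCm38.p6, the assembly of mm10), on the strand of the gene. They are Jun at chr4:95052223-95052472 (minus strand), Junb at chr8:84978749-84978998 (minus strand), Fos at chr12:85473640-85473889 (plus strand) and Fosb at chr7:19310046-19310295 (minus strand). Capitals mark matches on either strand. The motifs searched were the CRE (TGACGTCA) and its first part (TGACG), the TRE as spelled above, and TGACATCA and TTACCTCA, elements through which Jun is known to be activated by Jun and ATF2 dimers.
Jun: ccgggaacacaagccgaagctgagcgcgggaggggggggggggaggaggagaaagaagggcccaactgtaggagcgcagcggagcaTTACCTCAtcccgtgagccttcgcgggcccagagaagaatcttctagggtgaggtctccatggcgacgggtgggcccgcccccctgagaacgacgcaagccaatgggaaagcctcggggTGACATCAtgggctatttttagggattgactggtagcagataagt
Junb: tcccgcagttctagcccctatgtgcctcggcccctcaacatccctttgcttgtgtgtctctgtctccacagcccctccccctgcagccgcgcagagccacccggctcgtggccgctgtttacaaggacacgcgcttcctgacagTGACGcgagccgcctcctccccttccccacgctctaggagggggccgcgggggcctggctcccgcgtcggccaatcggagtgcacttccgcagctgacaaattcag
Fos: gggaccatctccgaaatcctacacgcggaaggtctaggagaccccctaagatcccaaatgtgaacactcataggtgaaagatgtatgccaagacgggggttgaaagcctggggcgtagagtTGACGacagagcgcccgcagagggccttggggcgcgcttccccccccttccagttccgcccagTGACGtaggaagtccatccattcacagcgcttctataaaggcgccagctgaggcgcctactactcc
Fosb: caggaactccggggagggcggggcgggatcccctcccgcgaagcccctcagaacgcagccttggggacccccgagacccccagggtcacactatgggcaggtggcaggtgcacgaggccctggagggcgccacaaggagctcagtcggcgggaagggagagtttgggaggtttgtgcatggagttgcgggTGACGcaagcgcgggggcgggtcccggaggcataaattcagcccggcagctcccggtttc
In these letters Jun had TGACATCA from position -45 to -38 and TTACCTCA from -164 to -157, counted back from the gene start. TGACATCA or its complement occurred in 2.93% of the 32851 RefSeq windows of this length, and TTACCTCA in 0.728%. Fos held TGACG at -129 and at -66, Fosb at -60 and Junb at -106, and this short motif occurred in 17.8% of windows. TGACGTCA (1.55% of windows) and TGAGTCA (4.46%) were in none of the 4, and the TGACG matches overlap TGACGTCA where both occur. RefSeq windows matched 8 of the 9 members. A match describes the letters only.

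By position, Fos (chr12:85473890-85477273) and Batf (chr12:85686669-85709087) are neighbours on chromosome 12 with the AP-1 repressor gene Jdp2 (chr12:85599027-85639878) between them, in GENCODE M21 coordinates on mm10. Jdp2 was 20.1 ± 2.16 CPM in null and 20.1 ± 3.00 CPM in WT (SD, n = 3 and 2; CPM are counts scaled to library size with TMM factors). Junb (chr8:84974484-84978718) and Jund (chr8:70698949-70700616) share chromosome 8. Jun (chr4:95049034-95052222) and Jund are annotated with 1 exon and no intron. The remaining members are Fosb (chr7:19302696-19310051), Fosl1 (chr19:5447547-5455946), Fosl2 (chr5:32135801-32157842) and Atf3 (chr1:191170296-191218039).

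The libraries held 7792271, 7530382 and 8150774 counts in null and 7980630 and 6972753 in WT, so 1 CPM was about 7 to 8 counts. Gabbr1 had 289, 264 and 268 counts in null libraries 1, 2 and 3 and 402 and 403 in WT (-0.59 ± 0.13 SE on the log2 scale, edgeR adjusted p = 0.0361). With a library left out the adjusted p was 0.0722 (WT 1), 0.38 (WT 2), 0.0802 (null 2) or 0.137 (null 3). Reads across the whole gene do not check the deletion. Null library 1 had 22532 Xist counts and 0 counts of Ddx3y, unlike the other 4 libraries, with at most 21 and at least 251. The Y-linked genes Uty, Kdm5d and Eif2s3y also had 0 counts there. By these genes null library 1 was female and the other 4 libraries male. Sex was mixed within null only, was not a term of the fits, and its part was not tested. Without null library 1, the log2 fold changes of the 7 fitted members were -2.28 to -0.58. All 8 LSK gate genes were read, with 1 lower and 0 higher in null, and their summed level was 2718 to 2933 CPM in null and 3332 to 3548 CPM in WT. Kit, the stem cell factor receptor, averaged 912 CPM in null and 1022 CPM in WT. WT library 2 stood above WT library 1 for most members, and each fitted member is therefore given also without it.

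Jun, the subunit that can bind DNA with itself or with any Fos protein, had the largest difference among the fitted members. Its level was 132, 75.3 and 134 CPM in null libraries 1, 2 and 3, against 388 and 619 CPM in WT libraries 1 and 2. The groups did not overlap, and the lowest WT library stood 2.90 times above the highest null library. The means were 114 ± 33.2 CPM in null and 503 ± 163 CPM in WT (SD, n = 3 and 2), a log2 fold change, null over WT, of -2.14 ± 0.23 (SE). Without WT library 2 it was -1.77, and without WT library 1 it was -2.45. Exons of Jun overlap the antisense gene Junos over 7.28% of their length, and the strand setting of the counting was not given in the sources used here.

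Fos, the partner that needs a Jun protein to bind DNA, was 63.6, 29.6 and 39.0 CPM in null and 96.4 and 239 CPM in WT. The groups did not overlap, but the WT libraries differed 2.48-fold from each other and the null libraries 2.15-fold. Its means were 44.0 ± 17.6 CPM in null and 168 ± 101 CPM in WT (SD, n = 3 and 2), with a log2 fold change of -1.93 ± 0.33 (SE) that was -1.13 without WT library 2.

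Junb, a Jun protein with weaker activating power than Jun in mouse cells, was 52.9, 39.6 and 45.0 CPM in null and 62.3 and 109.9 CPM in WT. All null libraries lay below both WT libraries, by a narrow margin of 1.18 times at the closest. The log2 fold change was -0.91 ± 0.20 (SE) with all libraries and -0.44 without WT library 2. Exons of Junb overlap those of Prdx2 on the other strand over 7.52% of their length, and Prdx2 was 175 ± 14.8 CPM in null and 173 ± 11.6 CPM in WT (SD, n = 3 and 2).

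Jund was 74.2, 37.2 and 55.2 CPM in null and 83.1 and 124 CPM in WT. The groups were separated by 1.12 times at the closest, less than the 1.99-fold range within the null libraries. Its log2 fold change was -0.90 ± 0.23 (SE), or -0.58 without WT library 2. An antisense gene overlaps 52.6% of the exon length of Jund, so its counts are uncertain if reads were not separated by strand.

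Fosb, which has a full and a shorter, dominant-negative splice form that gene counts cannot tell apart, was 72.9, 50.5 and 57.3 CPM in null and 59.6 and 143 CPM in WT. The groups overlapped, since WT library 1 lay within the null range. The log2 fold change of -0.74 ± 0.27 (SE) rested on WT library 2, without which it was 0.02 ± 0.20 (SE).

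Fosl2, a Fos relative without the strong activation domain of Fos, was 34.0, 44.7 and 28.2 CPM in null and 42.3 and 69.2 CPM in WT. Here too the groups overlapped, with null library 2 above WT library 1. The log2 fold change was -0.64 ± 0.22 (SE) and -0.25 without WT library 2.

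Batf was the only fitted member that was not higher in WT library 2 than in WT library 1. It was 7.73, 5.41 and 6.90 CPM in null, from 41 to 58 counts per library, and 9.48 and 8.97 CPM in WT, from 77 and 63 counts. The groups did not overlap, and the log2 fold change of -0.47 ± 0.25 (SE) was -0.50 without WT library 2.

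Fosl1 and Atf3 were close to the limit of counting and were left out of the main fit by the filter on low counts. With no filter, and in DESeq2, both were fitted and neither passed an adjusted p of 0.05. Fosl1, another Fos relative, had 3, 9 and 9 counts in null and 8 and 7 in WT, and 57.2% of its exon length overlaps Ccdc85b on the other strand. Atf3, a stress-induced repressor, had 3, 1 and 6 counts in null and 4 and 4 in WT. A difference between the genotypes was not detectable for either gene at this depth.

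**Figure D1:**
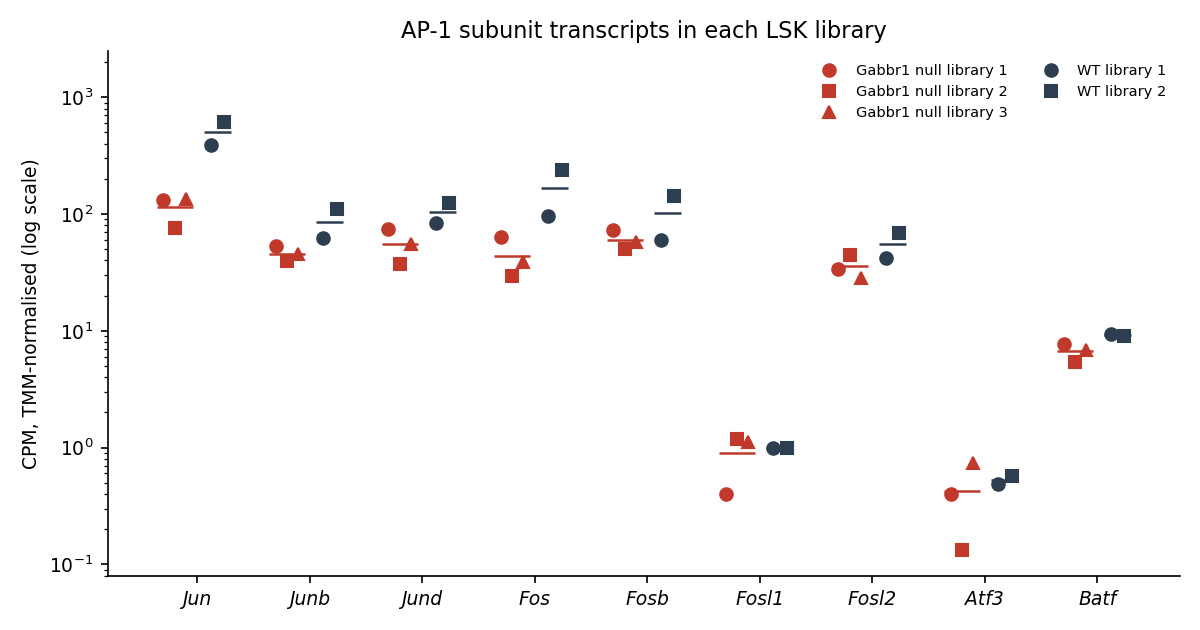
Level of the 9 AP-1 genes in each library, in CPM on a log axis, with Gabbr1 null libraries in red to the left of WT libraries in dark blue and a bar at each group's mean. Jun separates the groups most (75.3 to 134 CPM in null, 388 and 619 CPM in WT), while Fosl1 and Atf3 lie near or below 1 CPM.

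In the fit of all genes, 3 of the 7 fitted members (Jun, Fos and Junb) were among the 45 genes lower in null at an adjusted p under 0.05, where the share over all tested genes was 0.334%. In 5 of the 7, all but Fosb and Fosl2, every null library lay below both WT libraries, as in 13.7% of all tested genes. All 7 log2 fold changes were below 0, as were 50.8% over all tested genes, also with RLE or upper quartile scaling, except that Fosb was above 0 without WT library 2. Nothing is read from these counts, because the members were chosen with this contrast known. Without WT library 2, none of the 7 passed, and 0 genes of the whole table were lower. In the fits without null library 1, 2 or 3, between 2 and 4 passed, Jun and Fos in each of them. These refits use the same values that chose the family and add no support.

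**Figure D2:**
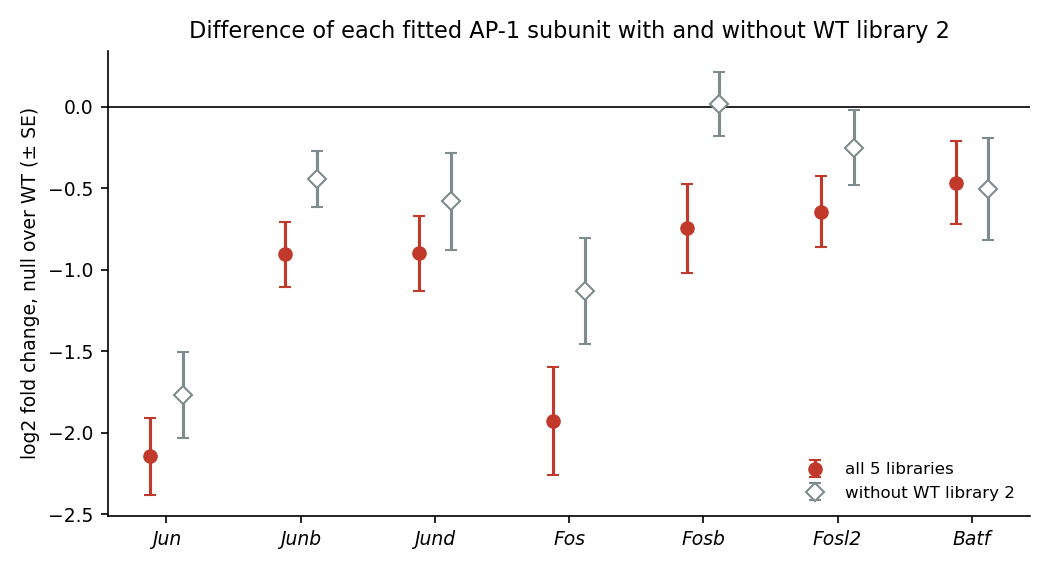
Log2 fold change, null over WT, of the 7 fitted AP-1 genes with bars of ± 1 SE, for all 5 libraries (red circles) and without WT library 2 (open diamonds). Jun stays at -1.77 without that library, Fosb moves to 0.02 and Batf is at -0.50.

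Most fitted members moved in the same direction among libraries of the same genotype, by different amounts, and Batf and Fosl2 departed from this. WT library 2 stood above WT library 1 by 2.48 times for Fos, 2.40 for Fosb, 1.77 for Junb, 1.63 for Fosl2, 1.60 for Jun and 1.5 for Jund, and at 0.947 times for Batf. The median of that ratio over all tested genes was 0.998, and 4.84% of them had a ratio at least as high as that of Jun. Among null libraries, library 2 was the lowest for Jun, Junb, Jund, Fos, Fosb and Batf, yet the highest for Fosl2. Library 1 held the highest null level of Junb, Jund, Fos, Fosb and Batf.

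Levels of different genes were compared per kilobase of annotated exon (CPM per kb). In null the order was Jun (35.7 ± 10.4), Jund (33.3 ± 11.1), Junb (19.9 ± 2.91), Fos (18.7 ± 7.46), Fosb (9.65 ± 1.83), Batf (4.75 ± 0.836), Fosl2 (3.68 ± 0.865), Fosl1 (0.442 ± 0.214) and Atf3 (0.197 ± 0.141; SD, n = 3). The ranges over the null libraries overlapped for Jun and Jund, Jund and Junb, Junb and Fos, Batf and Fosl2, and Fosl1 and Atf3. The null range of Fos also overlapped those of Jun and Jund. Within each null library, Jund still stood above Junb (44.5 against 23.0, 22.3 against 17.2 and 33.1 against 19.6). Jun and Jund also stood above Fos in each null library, and Fosl1 stood above Atf3 in each, on few counts. The order of the other pairs changed between null libraries. In WT the order was Jun (158 ± 51.2), Fos (71.3 ± 43.0), Jund (62.2 ± 17.5), Junb (37.4 ± 14.6), Fosb (16.2 ± 9.45), Batf (6.56 ± 0.254), Fosl2 (5.76 ± 1.96), Fosl1 (0.487 ± 0.00426) and Atf3 (0.247 ± 0.0254; SD, n = 2). In WT, Jun stood above every other member in both libraries, while Fos overlapped Jund and Junb, and Batf overlapped Fosl2. Jund stood above Junb by a small margin (49.8 CPM per kb at its lowest, against 47.8 at the highest of Junb). With the longest transcript as the length, the order of the means was the same in both groups, but more neighbours overlapped. Fosb then reached 19.3 in null, above the lowest Fos library (14.0), and Junb reached 60.8 in WT, above the lowest Jund library (49.8). Fosb also reached 37.8 in WT, above the lowest Junb library (34.4). These overlaps set the level in 1 library against that in another.

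The make-up of the AP-1 transcript pool per length also differed. Jun made up 26.4%, 25.4% and 32.5% of the summed CPM per kb of the family in null libraries 1, 2 and 3, and 46.6% and 42.6% in WT. Jund made up 28.4%, 24% and 25.6% in null and 19.1% and 16.4% in WT, and Junb 14.6%, 18.5% and 15.1% in null and 10.4% and 10.5% in WT. Jun was thus near the level of Jund in null (ratios of 0.930, 1.06 and 1.27) and above it in WT (2.44 and 2.60). Fos over Fosb was 2.31, 1.55 and 1.80 in null and 4.29 and 4.44 in WT. Both ratios were close in the WT libraries although the levels were not. The size of Fos over Fosb depends on the length taken. With the longest transcript, mean Fos was 20.9 against 15.9 CPM per kb for Fosb in null, and 79.6 against 26.8 in WT. The summed Jun genes over the summed Fos genes gave 2.57, 2.44 and 3.24 in null and 3.58 and 2.39 in WT, which overlap. These ratios use the same values that chose the family and were not tested.

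**Figure D3:**
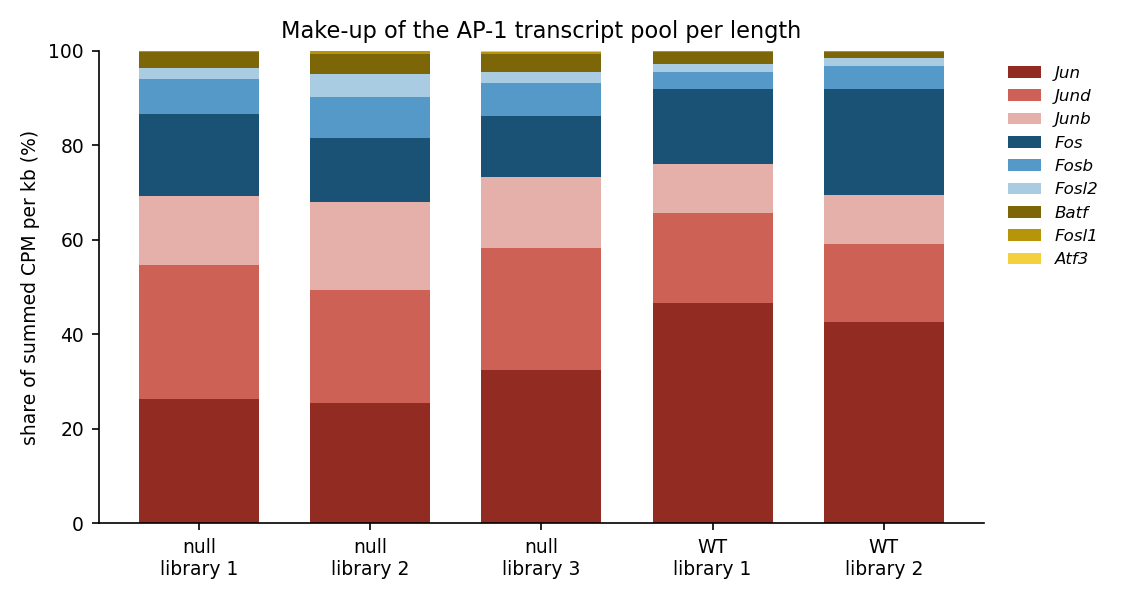
Share of each AP-1 gene in the family's summed CPM per kb of annotated exon, in percent, as stacked bars for the 3 Gabbr1 null and the 2 WT libraries. Jun takes 25.4% to 32.5% in null and 42.6% to 46.6% in WT, and Jund and Junb take larger shares in null.

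Genes whose profile was most like Jun were sought by the root mean square difference between centred log2 CPM profiles over the 5 libraries, among 10813 genes of at least 5 CPM on average. The nearest were the nuclear receptor gene Nr4a1 (0.32), Fos (0.34), the phosphatase gene Dusp1 (0.42), Nr4a2 (0.50) and Zfp36, which encodes an mRNA decay factor (0.53). For Fos they were Nr4a1 (0.27), Dusp1 (0.33), Jun (0.34), Zfp36 (0.40) and the zinc finger factor gene Egr1 (0.41). For Junb they were the immediate early gene Ier2 (0.08), the kinase gene Camkk1 (0.11), Ppp1r15a, a phosphatase subunit of the stress response (0.13), the NF-kB cofactor gene Bcl3 (0.14) and the natriuretic peptide receptor gene Npr2 (0.16). Ier2 was 113, 93.2 and 97.4 CPM in null and 136 and 215 CPM in WT. With a floor of 20 CPM, 4 of the 5 nearest remained for Jun, 5 for Fos and 2 for Junb.

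Other immediate early genes, listed with earlier results known, changed in part. Of 21 tested, 7 were lower and 1 was higher in null (edgeR adjusted p under 0.05), against 0.334% and 2.15% of all tested genes, and their median log2 fold change was -0.44 beside 0.00 over all genes. DESeq2 called 5 lower and 1 higher, and limma-voom 6 and 0. Dusp1, which switches MAP kinases off, was 58.4, 42.1 and 47.2 CPM in null and 96.7 and 175 CPM in WT (-1.46 ± 0.21 SE on the log2 scale, edgeR adjusted p = 0.00246). Klf6, a zinc finger factor gene, was 55.2, 48.4 and 50.4 CPM in null and 81.8 and 88.2 CPM in WT, 2 libraries close to each other (-0.73 ± 0.11 SE, edgeR adjusted p = 0.00398). Nr4a1, Egr1, Zfp36, Ppp1r15a and Ier2 also fell, with log2 fold changes of -2.24, -1.19, -1.15, -0.92 and -0.79. The 7 calls were lost without WT library 2, with edgeR adjusted p between 0.0967 and 0.481. Zfp36 was lost also without WT library 1 (0.0502), and Ier2 without null library 2 (0.0727) or 3 (0.0619). DESeq2 did not call Egr1 (adjusted p = 0.189) or Zfp36 (0.190), and limma-voom did not call Nr4a1 (0.0606). Sgk1, a kinase gene induced by serum and steroids, rose instead, with 49.0, 19.8 and 31.1 CPM in null and 9.72 and 10.3 CPM in WT (1.74 ± 0.32 SE, edgeR adjusted p = 0.0123). Leaving out WT library 1 (0.151) or 2 (0.313) ended this call, and limma-voom did not make it (0.0604). Myc, the most abundant of the list, was 315 ± 24.6 CPM in null and 301 ± 13.3 CPM in WT (SD, n = 3 and 2, edgeR adjusted p = 0.889).

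Genes that act upstream of AP-1 were called at a share near that of all genes. Of 32 tested genes of the MAP kinase cascade, whose kinases phosphorylate Jun and the factors that switch on Fos, 1 was higher and 0 were lower in edgeR, DESeq2 and limma-voom, where 2.15% of all tested genes were higher and 0.334% lower in edgeR, with 2 higher and 1 lower at an unadjusted edgeR p under 0.05. Map3k5, a stress kinase, was 98.4 ± 6.42 CPM in null and 67.9 ± 6.26 CPM in WT (SD, n = 3 and 2, 0.53 ± 0.11 SE on the log2 scale, edgeR adjusted p = 0.0297). With a library left out the adjusted p was 0.0661 (WT 1), 0.287 (WT 2), 0.120 (null 1) or 0.0645 (null 3). The Jun kinase genes Mapk8 and Mapk9 were at 0.04 ± 0.15 and 0.02 ± 0.11 on the log2 scale (SE). Of 16 activators of Fos and Jun transcription, 0 passed in any of the 3 tools, and at an unadjusted edgeR p under 0.05 there were 1 higher and 2 lower. Among them Srf, the serum response factor, was 62.4 ± 5.37 CPM in null and 65.0 ± 9.78 CPM in WT, and Elk4, its cofactor, 358 ± 22.3 and 276 ± 26.5 CPM (SD, n = 3 and 2, edgeR adjusted p = 0.913 and 0.169). Of 15 genes for turnover or repression of AP-1 proteins, 0 passed in the 3 tools and 0 at an unadjusted p under 0.05. Fbxw7, a ubiquitin ligase subunit for Jun, was 32.7 ± 2.19 CPM in null and 32.1 ± 8.74 CPM in WT (SD, n = 3 and 2). Mapk8, Mapk9, Srf, Fbxw7 and Jdp2 were named after their values were seen.

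Other leucine zipper genes that can pair with AP-1 proteins or share their elements were mostly not called. Of 20 tested, 2 were higher and 0 lower in each of the 3 tools (2.15% and 0.334% of all tested genes in edgeR), and at an unadjusted edgeR p under 0.05 there were 3 and 2. Bach2, a repressor known from B cells, rose to 91.9, 68.6 and 73.5 CPM in null, against 44.7 and 44.7 CPM in WT (0.80 ± 0.14 SE on the log2 scale, edgeR adjusted p = 0.00841). Leaving out WT library 1 (0.0992) or 2 (0.201) ended this call. Atf4, the most abundant of them, was 173 ± 18.4 CPM in null and 198 ± 13.7 CPM in WT (SD, n = 3 and 2, edgeR adjusted p = 0.540).

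Among genes described as AP-1 targets in other cells, those called were higher in null, a direction that the low-count filter partly fixed. Mmp13 and Mt2 were below 1 CPM in both WT libraries and were kept through their null counts. They could thus only be called higher. With at least 1 CPM required in every library neither was fitted, and Spp1 still passed (edgeR adjusted p = 0.00577). Of 17 tested among 26 listed, 3 were higher and 0 lower in edgeR (2.15% and 0.334% of all tested genes, so that no lower call among 17 genes is near the background), 4 and 0 in DESeq2, and 0 and 0 in limma-voom, with 6 higher and 1 lower at an unadjusted edgeR p under 0.05 and a median log2 fold change of 0.00. The 3 were the matrix protease gene Mmp13 (81, 107 and 16 counts in null, 1 and 0 in WT), the secreted phosphoprotein gene Spp1 (27.2, 41.3 and 7.77 CPM in null, 2.09 and 1.99 CPM in WT) and the metallothionein gene Mt2 (8.26, 5.54 and 3.08 CPM in null, 0.492 and 0.854 CPM in WT). Null library 3 had the lowest null level of all 3 genes, and stromal collagen genes were low there too. Col1a1 was 43.3, 52.5 and 1.48 CPM in null and 1.48 and 0.997 CPM in WT, and Col1a2 was 23.2, 31.3 and 4.19 CPM in null and 1.23 and 3.13 CPM in WT. Col1a2 was called in edgeR only (adjusted p = 0.0383), and Col1a1 was not called (edgeR adjusted p = 0.0523). The other called genes of the endothelial and stromal list were still well above both WT libraries in null library 3. Cdh5 was 21.3, 17.2 and 20.2 CPM in null and 0.615 and 1.71 CPM in WT. Sparc was 33.2, 25.5 and 21.9 CPM in null and 0.246 and 0.997 CPM in WT. In null library 3, Kdr was 15.9, Cxcl12 13.3 and Lepr 2.10 CPM. These genes and the collagen genes were named after their values were seen. The part of stromal RNA in the 3 target genes was not tested. The ratio of Mmp13 counts per library size was 133 (95% exact interval 23.6 to 5288, counting error only). Their edgeR adjusted p were 0.00807, 0.00807 and 0.0132, and the calls were lost without WT library 1 (0.125, 0.138 and 0.139) or WT library 2 (0.297, 0.308 and 0.220). Exons of Mt2 overlap an antisense gene over 73.5% of their length. Ccnd1, the cyclin of early cell cycle entry, was 89.8 ± 8.03 CPM in null and 93.2 ± 6.42 CPM in WT (SD, n = 3 and 2), named after its values were seen, and Vim, the intermediate filament gene, 610 ± 30.0 and 563 ± 12.7 CPM (edgeR adjusted p = 0.758). Mmp3, Mmp12 and Il6 had 0 counts in all 5 libraries.

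**Figure D4:**
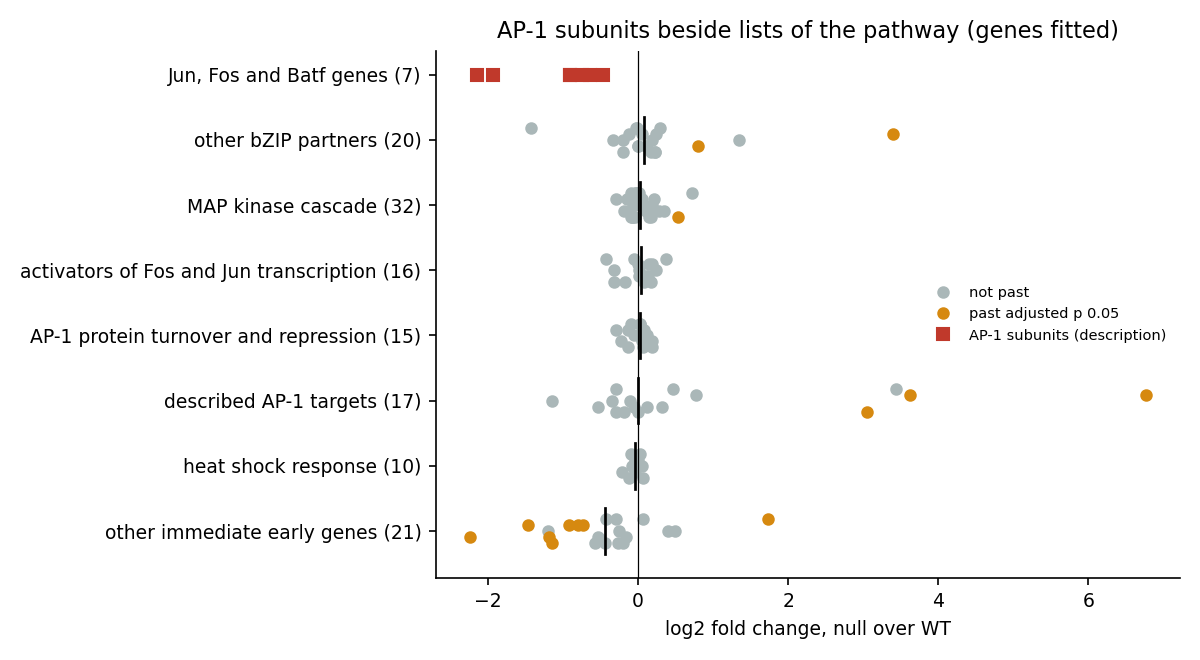
Log2 fold change, null over WT, of every fitted gene of the AP-1 family and of 7 lists, with the number fitted in brackets, a black line at each list's median and orange points for genes past an adjusted p of 0.05. The AP-1 genes lie between -2.14 and -0.47, the other immediate early genes have a median of -0.44, and the remaining medians lie between -0.04 and 0.08.

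The fitted heat shock genes did not pass the test, and a response to handling was not tested. With edgeR, DESeq2 and limma-voom alike, 0 passed (10 were fitted in edgeR), and 0 at an unadjusted edgeR p under 0.05, with a median log2 fold change of -0.04. The summed level of the 13 was 4964 to 5347 CPM in null and 5057 to 5327 CPM in WT. Hsp90ab1 was 2998 ± 222 CPM in null and 2947 ± 56.6 CPM in WT, and Hspa8 1149 ± 160 and 1181 ± 14.8 CPM (SD, n = 3 and 2). These genes supplied most of the summed level. Hspa1a, also on the list, was left out of the edgeR fit by the low-count filter, so the edgeR result does not cover it. Hspb1 had 0 counts in all libraries.

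Markers of other cell types moved with the genotype in the same libraries, and their part in the levels of the AP-1 genes was not tested. In bulk RNA, fewer cells that make a transcript and less of it per cell cannot be told apart. Over all tested genes, 2.15% were higher and 0.334% lower in null in edgeR. The 2 most abundant B lineage markers were Ighm (664 CPM in null, 671 CPM in WT) and Igkc (76.7 and 246 CPM). Igkc was the 1 gene of that list called lower in edgeR, and the list's median log2 fold change was 2.88. Of 16 B lineage markers 14 were higher and 1 lower (3 and 0 without WT library 2), and their summed level was 1506 to 2157 CPM in null and 931 to 1288 CPM in WT. Of 12 tested endothelial and stromal markers 6 were higher and 0 lower in edgeR (5 and 0 in DESeq2 and in limma-voom, 4 and 0 without WT library 2, 9 and 0 at an unadjusted p under 0.05), with sums of 362 to 472 CPM in null and 252 to 281 CPM in WT. Lepr and Pdgfra had 0 counts in both WT libraries. Of 10 tested mature neutrophil markers 0 passed in the 3 tools, although 9 were higher and 0 lower at an unadjusted edgeR p under 0.05. Their sums were 2328, 620 and 141 CPM in null libraries 1, 2 and 3 and 151 and 113 CPM in WT. The sums for monocytes and dendritic cells were 44.4 to 113 CPM in null and 38.6 to 51.7 CPM in WT, for T and NK cells 95.8 to 105 and 94.5 to 112 CPM, for megakaryocytes 79.3 to 89.9 and 52.4 to 53.0 CPM, and for erythroid cells 3.58 to 35 and 5.13 to 5.54 CPM. In those lists 1 gene each was higher in edgeR (Ccr2, Trbc1 and Pf4) and 0 were lower, and of the 2 erythroid genes tested 0 passed in the 3 tools, with 1 higher at an unadjusted p under 0.05. Hba-a1 and Hba-a2 had 0 counts in all libraries.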

How the data were processed

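The deposited table held raw counts per gene, 1 column per library, which the authors made with STAR and featureCounts on mm10, per the submitters' processing notes. Their versions, the annotation release, whether strand was used and how multi-mapped reads were handled were not given in the sources used here. Libraries were built from 3.6 to 5 ng of RNA after ribosomal depletion and read as pairs of 50 bp, per the labels' protocols.

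Of the 39056 identifiers, 99.5% matched GENCODE M21, which gave symbols, positions and exon lengths. Genes were filtered with filterByExpr (13467 kept), scaled with TMM and fitted in edgeR 4.0.16 (R 4.3.3; quasi-likelihood F test), genotype as the only term, 3 residual degrees of freedom, Benjamini-Hochberg adjusted p under 0.05. SE were derived from F. Total counts were 6972753 to 8150774. Intervals cover counting error only. Libraries of a group differed beyond sampling noise (chi-square per degree of freedom 7.61 to 12). The code was tested on simulated data.

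Members and gene lists were chosen with earlier results of these data known. Named genes were the members, Gabbr1, called or abundant members of the lists, and the 5 genes nearest to Jun, Fos and Junb (log2 of CPM plus 0.1). A selection is named, and some genes that the rule names are not reported here. Of 256 list entries, 3 matched no gene. Alternatives were RLE and upper quartile scaling, no filter, at least 1 CPM in every library, DESeq2 1.42.0, limma-voom 3.58.1, each library left out in turn, other lengths and a likeness floor of 20 CPM. Promoter windows are from RefSeq, GRCm38.p6.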

Additional observations from a re-analysis of the deposited data

How the results depend on the processing

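No paired analysis was possible because the labels carry no replicate numbers, and those used here only follow accession order. Of 77 refitted log2 fold changes of the 7 members, 74 kept their sign and moved by less than 1 SD between libraries (log2 CPM, pooled within groups), which can exceed 1 SE, and the exceptions were all without WT library 2, for Junb (-0.44), Fos (-1.13) and Fosb (0.0156, reversed, with -1.258 without WT library 1). The 289 genes higher became 602 with no filter and 173 with at least 1 CPM in every library, and 32 (without WT library 2) to 316 with a library left out, with 101 without WT library 1. The 45 genes lower became 155 with no filter and 0 to 51 with a library left out, the lowest without WT library 2 and 15 without null library 3 (on all libraries DESeq2 gave 41 and limma-voom 35). The 14 genes past the threshold in the 7 AP-1 pathway lists (markers of cell types not counted) became 24 with no filter, 9 in limma-voom and 0 to 14 with a library left out. The members past the threshold, given as a description only, were 6 with no filter and 2 in DESeq2 (Jun, Junb) and in limma-voom (Jun, Fos). Near 0, Hspa8 ranged from -0.154 to 0.0431 and Hsp90ab1 from -0.0284 to 0.0797 with a library left out. The causes were not tested. A lone WT library is given the spread of the null libraries. Counts of 1 to 9 limit Fosl1 and Atf3.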
